A study of Mus musculus with 2 samples.

Results

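The genes examined were Hbb-bs, Hbb-bt, Hba-a1, Hba-a2, Slc4a1 and Alas2, 6 of the 32285 mouse genes in the deposited counts, chosen by symbol as genes of the red blood cell lineage. They were followed in 2 single-nucleus RNAseq libraries of C57BL6 mice of both sexes, 10 to 14 weeks old according to the methods. The first library was made from scraped tibial periosteum together with its hematoma, 1 day after an open, non-stabilized tibial fracture (day 1 post-fracture). The second was made from periosteum with callus 5 days after musculoskeletal traumatic injury (day 5 post-MTI), in which the fracture is combined with compression of the muscles around it. Each library was 1 pool of nuclei from 3 or 4 mice, sorted on a nuclear dye, so no replicate, p-value or standard error exists and intervals are 95% intervals of counting error only. Because the libraries differ in both the time and the injury, these cannot be told apart.

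Red blood cells arise from erythroid precursors that pass through several divisions, fill with hemoglobin, condense their chromatin and, in mammals, expel the nucleus. Hemoglobin joins alpha and beta globin chains, each of which carries a heme group. Mature red cells have no nucleus and therefore give no nucleus to a sort. They are abundant in blood, in a hematoma and in bone marrow, and release what RNA they still hold when they break. Hbb-bs and Hbb-bt encode the adult beta chains, and Hba-a1 and Hba-a2 the alpha chains. Alas2 encodes the enzyme of the first, rate-limiting step of heme synthesis in erythroid cells, and Slc4a1 encodes band 3, the anion exchanger that anchors the red cell membrane to its cytoskeleton.

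In GENCODE (build GRCm38, the mm10 genome) the beta chain genes were neighbours on the minus strand of chromosome 7, Hbb-bt at chr7:103812524-103813996 and Hbb-bs at chr7:103826534-103828096. The alpha chain genes were neighbours on the plus strand of chromosome 11, Hba-a1 at chr11:32283511-32284465 and Hba-a2 at chr11:32296489-32297298. Slc4a1 lay elsewhere on chromosome 11 (chr11:102348824-102366203, minus strand). Alas2 lay on the X chromosome (chrX:150547375-150570638, plus strand) and was the one member that overlapped other genes, Apex2 and Mir3620, both on the opposite strand. The paralogs of each pair are similar in sequence, those of the alpha pair nearly identical. The reference transcripts of Hba-a1 and Hba-a2 matched at 537 of 538 aligned bases, and those of Hbb-bs and Hbb-bt at 580 of 626. Of the windows of 91 bases in the last 300 bases of the transcript, where this 3′ chemistry captures RNA, 56.7% of those of Hba-a1 and 49.0% of those of Hba-a2 were shared with the paralog. The corresponding shares were 24.3% for Hbb-bs and 23.8% for Hbb-bt. How the counts divide within each pair is therefore uncertain, more for the alpha than for the beta chains.

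RefSeq (GRCm38.p6) gives a promoter for 5 of the 6 members, in which 4 short words were searched. None of these words was held by all 5. The 250 bases before the RefSeq start are shown for one gene of the alpha pair, for both beta chain genes and for Alas2, because these genes were detected together in single nuclei, as described below. Capitals mark AGATAA and TGATAA (forms of the GATA factor motif), CCACACCC (the word bound by erythroid Krüppel-like factor) and CCAAT, on either strand. The windows are chr7:103827929-103828178 (minus strand) for Hbb-bs, chr7:103813924-103814173 (minus strand) for Hbb-bt, chr11:32296242-32296491 (plus strand) for Hba-a2 and chrX:150547167-150547416 (plus strand) for Alas2.
Hbb-bs: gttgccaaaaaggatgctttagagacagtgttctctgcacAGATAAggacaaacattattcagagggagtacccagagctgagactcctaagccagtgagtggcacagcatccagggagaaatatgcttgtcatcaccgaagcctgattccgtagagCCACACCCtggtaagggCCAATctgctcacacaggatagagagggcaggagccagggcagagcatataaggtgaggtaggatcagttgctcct
Hbb-bt: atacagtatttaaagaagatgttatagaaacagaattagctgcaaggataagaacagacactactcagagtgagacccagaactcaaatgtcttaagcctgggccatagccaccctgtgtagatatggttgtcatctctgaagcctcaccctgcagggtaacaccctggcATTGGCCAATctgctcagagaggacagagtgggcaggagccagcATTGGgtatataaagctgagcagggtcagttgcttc
Hba-a2: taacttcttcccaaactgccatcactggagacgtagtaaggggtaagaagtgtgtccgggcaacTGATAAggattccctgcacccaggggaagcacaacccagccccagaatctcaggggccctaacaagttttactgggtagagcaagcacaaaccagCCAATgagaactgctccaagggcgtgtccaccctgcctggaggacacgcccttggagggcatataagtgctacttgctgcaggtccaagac
Alas2: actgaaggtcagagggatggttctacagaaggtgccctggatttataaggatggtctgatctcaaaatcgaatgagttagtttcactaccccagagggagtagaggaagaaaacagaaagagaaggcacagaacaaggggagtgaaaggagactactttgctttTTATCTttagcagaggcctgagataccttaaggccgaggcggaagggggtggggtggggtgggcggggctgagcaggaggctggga

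Among 32851 promoter windows of this length, 9.99% held AGATAA, 7.94% TGATAA, 3.20% CCACACCC and 33.8% CCAAT on either strand. Hbb-bs held AGATAA, CCACACCC and CCAAT once each, in that order toward the start. Hbb-bt held CCAAT once as printed and 2 times as its reverse complement, 1 of these directly adjoining the first, and none of the other words. Hba-a2 held TGATAA and CCAAT, as did Hba-a1. Over the whole RefSeq windows of 300 bases, which run 50 bases past the start, the sequences of the alpha pair were identical at 297 of 297 bases aligned with a shift of 3. Alas2 held AGATAA as its reverse complement. GENCODE starts these genes farther upstream than RefSeq does, by 3 bases for Hba-a2, 42 for Alas2, 73 for Hbb-bt and 168 for Hbb-bs. These matches are descriptions of the letters and not of binding.

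The day 1 library held 48987 barcodes and 9389014 UMIs (unique molecular identifiers, which count captured RNA molecules), and the day 5 library 1446 barcodes and 5899407 UMIs. The filters of the methods left 2405 nuclei at day 1, with a median of 409 UMIs, and 1127 nuclei at day 5, with a median of 2364 UMIs. At day 1, 43464 further barcodes had fewer than 200 genes (6848386 UMIs, median 148 UMIs per barcode). Taken without a mitochondrial or ribosomal limit, they served as the measure of RNA outside nuclei. Whether shallow nuclei are among them was not tested. The day 5 library held only 27 such barcodes and no barcode under 500 UMIs, so no such measure was available there. The libraries shared 33 barcodes. The 6 members together made up 492 UMIs (0.00524%) of the day 1 library and 142 UMIs (0.00241%) of the day 5 library.

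At day 1 post-fracture, the erythroid genes were scarcer in nuclei than in the barcodes under 200 genes, and no nucleus held more than 1 of their UMIs. The members summed to 30 UMIs in the nuclei, 25.0 counts per 1000000 UMIs (CPM, 16.8 to 35.6), and to 394 UMIs in the low barcodes, 57.5 CPM (52.0 to 63.5). The ratio of nuclei over low barcodes was 0.434 (0.289 to 0.629), while the median ratio of all 22216 genes with at least 10 UMIs was 1.06. Of the 5 members with at least 10 UMIs, 4 were at least 2-fold lower in nuclei and the other, Alas2, had a ratio of 0.503, whereas 8.7% of all genes were at least 2-fold lower and 6.73% at least 2-fold higher.

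Hba-a2 was counted most often, with 16 UMIs in nuclei (13.3 CPM, 7.61 to 21.6) and 196 in low barcodes (28.6 CPM, 24.8 to 32.9), a ratio of 0.465 (0.261 to 0.774). Hba-a1 had 3 UMIs in nuclei and 48 in low barcodes, a ratio of 0.356 (0.0709 to 1.10). Hbb-bs likewise had 3 UMIs in nuclei but 61 in low barcodes, a ratio of 0.280 (0.0562 to 0.858). The interval of the ratio excluded 1 for Hba-a2 and Hbb-bs and held 1 for the other members. Slc4a1, with 4 and 47 UMIs, had a ratio of 0.485 (0.127 to 1.33), and Alas2, with 3 and 34 UMIs, one of 0.503 (0.0988 to 1.60). Hbb-bt had 1 and 8 UMIs, too few for the comparison.

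**Figure D1:**
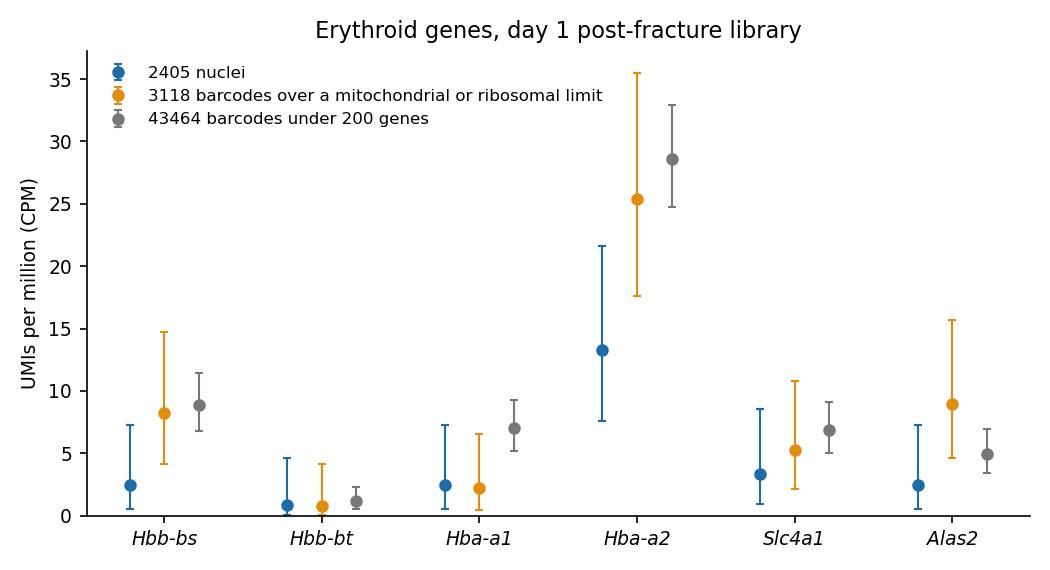
Level of each gene at day 1 post-fracture in CPM (y axis) in the nuclei (blue), in barcodes within the gene limits but over a mitochondrial or ribosomal limit (orange) and in barcodes under 200 genes (grey), with points for the sums and bars for 95% Poisson intervals. Hba-a2 was at 13.3, 25.4 and 28.6 CPM in the 3 sets, and for each gene the nuclei lay below the low barcodes.

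The difference moved with the mitochondrial limit. The 3118 barcodes that passed the gene limits but not the mitochondrial or ribosomal limit held 68 member UMIs (50.8 CPM, 39.5 to 64.4), a ratio of 0.883 (0.672 to 1.14) to the low barcodes. By member this ratio ran from 0.320 (0.0637 to 0.992) for Hba-a1, with 3 UMIs, to 1.81 (0.852 to 3.58) for Alas2, with 12 UMIs. Within the gene limits, the members were at 25.0 CPM below 0.5% mitochondrial UMIs, at 53.7 CPM (37.0 to 75.5) from 0.5 to 1%, at 49.0 CPM (30.7 to 74.2) from 1 to 2% and at 47.2 CPM (25.1 to 80.7) above that. With the gene limits alone the ratio of nuclei over low barcodes was 0.670 (0.532 to 0.838). Barcodes were also divided by number of genes, with no mitochondrial or ribosomal limit. The members were at 58.4 CPM under 100 genes, 57.1 CPM from 100 to under 200 and 44.9 CPM from 200 to under 300. They were at 31.0 CPM from 300 to under 500 and 34.0 CPM (19.0 to 56.0) at 500 genes or more. The part of free RNA in these differences was not tested.

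The members were not detected together in the day 1 nuclei. Each of the 30 UMIs in nuclei lay in a nucleus of its own, and 0 of 2405 nuclei held 2 members, which allows a share of up to 0.153%. Of the 43464 low barcodes, 382 held a member UMI and 7 held UMIs of 2 members, 2 of these with Hbb-bs and Hba-a2 and 2 with both alpha chains. Among the barcodes within the gene limits but over a mitochondrial or ribosomal limit, 3 held 2 members, 2 of them Hbb-bs with Hba-a2 and 1 Hbb-bs with Hba-a1. The highest number in a low barcode was 2 UMIs, and the variance of the member UMIs per barcode divided by their mean was 1.05. Slc4a1 or Alas2, the members that are no globins, had a UMI in 7 nuclei (0.291%, 0.117 to 0.599%) and in 79 low barcodes (0.182%, 0.144 to 0.226%). After thinning every barcode to 100 UMIs these shares were 1 of 2405 nuclei (0.0416%, 0.00105 to 0.231%) and 47 of 38950 low barcodes (0.121%, 0.0887 to 0.160%), so no difference was detectable at this depth. At least 1 member was found in 1.25% (0.843 to 1.78%) of nuclei and 0.879% (0.793 to 0.971%) of low barcodes before thinning. After it the shares were 0.374% (0.171 to 0.709%) and 0.603% (0.529 to 0.685%), and the intervals overlapped both times.

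At day 1, no rise of the erythroid markers that are no members was detectable in barcodes with a member UMI. The 16 markers (genes of the red cell membrane, surface antigens and transcription factors) were at 367 CPM (148 to 757) in the 30 nuclei with a member UMI and at 336 CPM (304 to 371) in the other 2375. The level in the 30 nuclei rested on only 7 marker UMIs, so a rise within its interval remains possible. In the low barcodes they were at 171 CPM (85.6 to 307) with a member UMI and 251 CPM (240 to 264) without. Most of their day 1 UMIs came from Ank1, the ankyrin of the red cell membrane (183 UMIs in nuclei), and Sptb, beta spectrin (116 UMIs), which are also expressed in skeletal muscle. Klf1 and Gfi1b, transcription factors of erythroid cells, had 0 UMIs in nuclei, with 6 and 16 UMIs in low barcodes.

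The other lists of red cell and heme genes are given for the day 1 nuclei over the low barcodes, and their counts stand against the 8.7% of all genes that were at least 2-fold lower. The embryonic and theta globins (Hbb-y, Hbb-bh1, Hbb-bh2, Hba-x, Hbq1a and Hbq1b) had 0 UMIs in nuclei and 5 in low barcodes. Of the 12 genes of heme synthesis and iron uptake, all were measured and 1, Abcb10, a mitochondrial transporter of erythroid cells, was at least 2-fold lower (0.458, 0.204 to 0.900), with a median ratio of 1.00. Of 9 genes of the red cell membrane and cytoskeleton, 0 were at least 2-fold lower, with a median ratio of 1.27. Of 7 measured surface antigens, 1, the water channel Aqp1, was at least 2-fold lower (0.380, 0.0755 to 1.18), while the interval lay above 1 for Rhag, the Rh-associated glycoprotein (18 and 55 UMIs, 1.86, 1.03 to 3.22), and for Gypc, glycophorin C (72 and 264 UMIs, 1.55, 1.18 to 2.02). Of the 8 measured transcription factors of the lineage, 1 was at least 2-fold lower, with a median ratio of 0.865. Of the 13 late maturation genes, 2 were at least 2-fold lower and 1 at least 2-fold higher, with a median ratio of 0.834. Bpgm, which makes the phosphate that regulates oxygen release by hemoglobin, had 1 UMI in nuclei and 45 in low barcodes (0.127, 0.00314 to 0.742). Of 10 genes of hemoglobin and heme clearance, 2 were at least 2-fold lower and for 6 the interval lay below 1. They included Hmox1, heme oxygenase (0.703, 0.496 to 0.975), and the ferritin chains Fth1 (0.514, 0.387 to 0.671) and Ftl1 (0.531, 0.368 to 0.745). Macrophage markers moved the same way, with 5 of 7 intervals below 1 and a median ratio of 0.614, and their part in these values was not tested.

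At day 5 post-MTI the erythroid genes were concentrated in a handful of nuclei. The members summed to 131 UMIs over 1127 nuclei (30.2 CPM, 25.3 to 35.8), made up of 22 UMIs of Hbb-bs, 10 of Hbb-bt, 32 of Hba-a1, 16 of Hba-a2, 28 of Slc4a1 and 23 of Alas2. Only 33 nuclei held any of them, and 109 of the UMIs (83.2%) lay in the 11 nuclei that held at least 2 different members. The variance of the member UMIs per nucleus divided by their mean was 10.6. The other 22 nuclei held exactly 1 member UMI each, and without the 11 nuclei the level was 5.09 CPM (3.19 to 7.70). The limit of at least 2 members was set after these counts were seen, so the member values on either side of it are a description.

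Of the 11 nuclei, 3 held all 6 members, 3 held 5, 1 held 4, 2 held 3 and 2 held 2. Together 7 of 1127 nuclei (0.621%, 0.250 to 1.28%) held at least 4, and 5 (0.444%, 0.144 to 1.03%) still did after each nucleus was thinned to 500 UMIs. These nuclei were shallow, with 643 to 2929 UMIs and a median of 1132, against a median of 8516.5 UMIs in the 22 nuclei with a single member UMI. Most member UMIs were thus not found where most RNA was sampled.

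Slc4a1 was detected in each of the 11 nuclei and Hba-a1 in 10 of them. The Slc4a1 count per nucleus ranged from 1 to 5, with 27 UMIs in all, and only 1 further Slc4a1 UMI lay elsewhere, in a myogenic nucleus. Hba-a1 had 29 UMIs in these nuclei and 3 elsewhere. Hbb-bs was found in 8 of them with 17 UMIs, of which 7 lay in a single nucleus, and had 5 UMIs elsewhere. Hba-a2 had 15 UMIs in 7 nuclei and Hbb-bt 9 UMIs in 5 nuclei, each with 1 UMI elsewhere. Alas2 was the exception, with 12 UMIs in 6 of the 11 nuclei and 11 UMIs in 11 other nuclei.

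**Figure D2:**
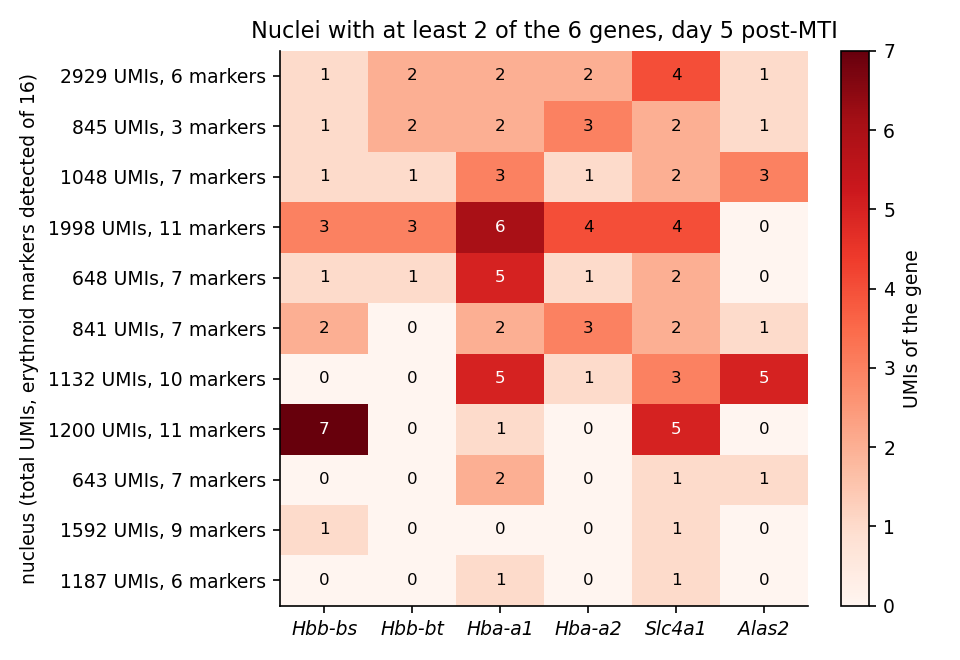
UMIs of each of the 6 genes (columns, numbers and colour scale) in each of the 11 nuclei with at least 2 of them at day 5 post-MTI (rows, labelled with the total UMIs of the nucleus and the number of the 16 erythroid markers with a UMI). Slc4a1 has at least 1 UMI in every row, and the nucleus with 7 UMIs of Hbb-bs has 5 of Slc4a1 and none of Hbb-bt, Hba-a2 or Alas2.

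Co-detection in single nuclei linked heme synthesis, the membrane gene and the globins. Of the 12 nuclei with a Slc4a1 UMI, 6 (50%, 21.1 to 78.9%) also had an Alas2 UMI, against 11 of the 1115 nuclei without Slc4a1 (0.987%, 0.493 to 1.76%). The Slc4a1-positive nuclei were the shallower ones, at a median of 1159.5 UMIs against 2391. Hba-a1 was found in 10 of the 12 and Hbb-bs in 8 of the 12 Slc4a1-positive nuclei. Among the 8 nuclei with Hba-a2, 7 also had Hba-a1 and 7 had Slc4a1. Given Alas2, however, only 6 of 17 nuclei had Slc4a1 (35.3%, 14.2 to 61.7%).

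Alas2 made up a larger part of the member UMIs outside the 11 nuclei than of those inside. Its UMIs were 11 of the 22 single UMIs (50%, 28.2 to 71.8%), against 12 of the 109 member UMIs of the 11 nuclei (11%, 5.82 to 18.4%). Those 11 nuclei with Alas2 alone were deep, with a median of 12023 UMIs, and were assigned to the fibrogenic (5), myogenic (4), macrophage (1) and endothelial (1) clusters. The single globin UMIs numbered 10, of which 5 were Hbb-bs. Of these 5, 3 lay in the fibrogenic cluster, as did the 1 of Hbb-bt, whereas no alpha chain UMI did. The single Slc4a1 UMI was in the myogenic cluster, so these locations were not particular to Alas2. The 16 erythroid markers were at 79.5 CPM (43.5 to 133) in the 22 nuclei with 1 member and at 90.2 CPM (81.3 to 99.8) in the 1094 nuclei without any.

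Other erythroid genes had their highest levels in the same nuclei as the members, though not all of their UMIs. In the 11 nuclei the 16 markers summed to 227 UMIs, 16142 CPM (14110 to 18384). The other 1116 nuclei held 388 UMIs, 89.7 CPM (81.0 to 99.1). Each of the 11 nuclei held UMIs of 3 to 11 different markers. In the reverse direction, 17 nuclei held at least 3 markers, of which 11 were these nuclei and the other 6, with exactly 3 markers, included 5 of the myogenic cluster. All 10 nuclei with at least 4 markers held at least 2 members. Grouping by at least 3 markers uses no member, but this cutoff was chosen after the data were seen. It gave a ratio of the summed members of 307 (193 to 510) for the 17 nuclei over the rest.

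**Figure D3:**
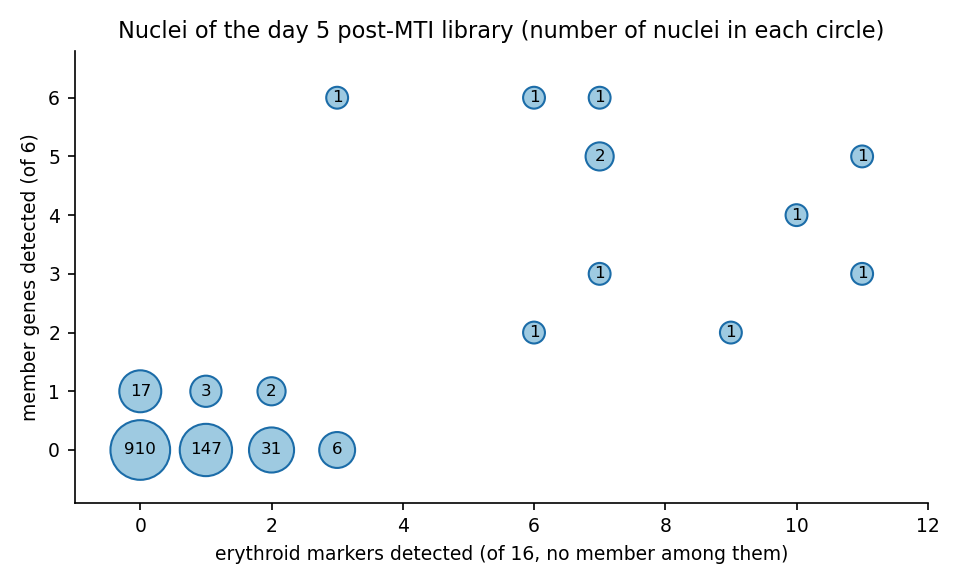
Number of the 6 member genes detected (y axis) against the number of 16 other erythroid markers detected (x axis) in the nuclei of the day 5 post-MTI library, with the number of nuclei printed in each circle and circle area growing with it. Nuclei with 0 or 1 member hold at most 3 markers, and those with at least 2 members hold 3 to 11.

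The clustering, from which the members and all other globins had been left out, put 10 of the 11 nuclei together but not alone. Cluster 8, of 33 nuclei, was the one that met the rule for the name erythroid, with 12 of the 16 markers, and its leading genes included Neil3, Kel, Slc25a21, Hba-a1, 5430401H09Rik, Mki67, Kif11 and Rhag. It held 99 member UMIs (584 CPM, 475 to 711) against 32 (7.68 CPM, 5.25 to 10.8) in the other 1094 nuclei, a ratio of 76.1 (50.6 to 117). With nuclei clustered anew, the ratio was 10.5 (6.73 to 15.97) under a mitochondrial limit of 0.5% and 30.4 (19.9 to 46.8) with at least 500 genes. Under the 0.5% limit the named cluster held 33 member UMIs, and some of the 10 nuclei that passed this limit lay in other clusters. All 6 members were at least 2-fold higher in cluster 8 of the main clustering, where 14.2% of 15213 genes were at least 2-fold higher and 37% at least 2-fold lower.

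The name did not hold for most of the cluster. Its 10 nuclei with at least 2 members had 643 to 1998 UMIs, 3 to 11 erythroid markers each and 2 macrophage marker UMIs in all. The other 23 nuclei had a median of 7118 UMIs and 0 to 2 erythroid markers, 18 of them none, and 2 member UMIs in all. All 23 held a UMI of a proliferation marker, and 21 held a UMI of a macrophage marker (453 UMIs of the 7 macrophage markers, 2862 CPM). Of the 10 nuclei, 8 also held a proliferation marker UMI, and the 6 proliferation markers were at 8532 CPM in the 10 and 2698 CPM in the 23 nuclei. Mki67, which marks dividing cells, was at 4491 CPM in the 10 and 670 CPM in the 23 nuclei. The cluster is therefore read here as 10 erythroid and 23 other nuclei. In the 10 the members were at 8712 CPM (7065 to 10628), a level that follows in part from choosing these nuclei by their members.

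The eleventh nucleus was placed in a macrophage cluster. It had 2929 UMIs, 12 UMIs of members with each of the 6 genes detected, 13 UMIs of 6 erythroid markers and 11 UMIs of macrophage markers. Scrublet did not mark it as a doublet, and it marked 3 of the 1127 nuclei in all (0.266%). Whether it is 1 nucleus or 2 was not tested. Without it the macrophage cluster 3 had 0 member UMIs.

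Outside these nuclei the members were rare in every named cluster. Counts were 9 UMIs in the injury-induced fibrogenic cells (IIFCs, 177 nuclei, 8.75 CPM, 4.00 to 16.6), 5 in the myogenic cluster (127 nuclei, 5.57 CPM, 1.81 to 13.0), 3 in macrophage cluster 0 (195 nuclei, 4.08 CPM, 0.842 to 11.9) and 1 in the endothelial cluster (36 nuclei, 5.52 CPM, 0.140 to 30.8). These 4 levels did not differ beyond their intervals. The neutrophil (85 nuclei), lymphoid (32) and osteoclast (30) clusters had 0, with upper limits of 52.6, 60.7 and 18.0 CPM. Of the 3 unnamed clusters, 1 had 0 UMIs in 179 nuclei and the others 1 UMI each.

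The fixed lists described the 11 nuclei further, and for each gene the ratio is that of the 11 over the other 1116 nuclei, a comparison in which 12.5% of 15213 genes were at least 2-fold higher and 76.8% at least 2-fold lower. Over all those genes the median ratio was 0, since the 11 nuclei together held only 14063 UMIs. The genes of these lists were not used to choose the nuclei, but some of them are also among the 16 markers. Some, such as Epb42, Kel and Rhag, had enough UMIs for a ratio only through the 11 nuclei. The counts of genes that were higher are thus in part fixed by this filter.

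The red cell membrane and its cytoskeleton gave the most UMIs, 274 over the 9 genes, against 1396 in the other 1116 nuclei. Of the 8 genes with enough UMIs for a ratio, 8 were at least 2-fold higher, with a median ratio of 86.5. Epb41, which encodes protein 4.1 and links spectrin to actin, had 119 UMIs, with at least 1 in each of the 11 nuclei, and 909 elsewhere (ratio 40.2, 33.0 to 48.8). Ank1 had 40 UMIs and 188 elsewhere (65.4, 45.3 to 92.4). Sptb had 31 UMIs and 107 elsewhere (89.1, 57.7 to 134). Epb42, protein 4.2, had 16 UMIs and 0 elsewhere, and the interval of its ratio had a lower limit of 1186. Dmtn, dematin, had 17 UMIs (307, 148 to 641).

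Surface and blood group antigens were as restricted, with 7 of 7 measured genes at least 2-fold higher and a median ratio of 363. Kel, the Kell blood group protein, had 30 UMIs in 9 of the 11 nuclei and 2 UMIs elsewhere (4611, 1170 to 39822). Rhag had 22 UMIs and 3 elsewhere (2254, 677 to 11765). Ermap, an erythroid membrane protein, had 13 UMIs (363, 150 to 896). Icam4 had 0 UMIs in these nuclei.

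Heme synthesis was represented beyond Alas2, with 10 of 12 genes at least 2-fold higher and a median ratio of 25.7. Fech, ferrochelatase, which inserts iron in the last step, had 27 UMIs (41.1, 26.4 to 61.6). Abcb10 had 21 UMIs (102, 59.4 to 170), and Slc25a37, the mitochondrial iron importer mitoferrin, had 20 (22.1, 13.3 to 34.8). Tfrc, the transferrin receptor, had 23 UMIs (12.9, 8.10 to 19.5). Alas1, which encodes the form of the first enzyme found in all cells, had 1 UMI (2.87, 0.0721 to 16.4). Alad and Slc25a38 had 0 UMIs in the 11 nuclei and 10 and 68 elsewhere, which at this depth leaves either direction possible.

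Late maturation genes numbered 13 in the counts, and 10 of the 11 with enough UMIs were at least 2-fold higher, with a median ratio of 49.9. Xpo7, a nuclear exporter needed for chromatin condensation in erythroid cells, had 82 UMIs in 6 of the 11 nuclei (32.3, 25.4 to 40.6). Hemgn, hemogen, had 16 UMIs (547, 227 to 1403), Bpgm had 12 (127, 59.1 to 257), and Car2, carbonic anhydrase, also had 12 (99.7, 47.3 to 195). Car1 had 0.

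Transcription factors of the lineage were seldom captured, apart from Sox6. Sox6, which takes part in silencing embryonic globin genes and is also expressed in muscle and cartilage, had 101 UMIs in all 11 nuclei (7182 CPM, ratio 13.6, 11.02 to 16.59). Gata1, Klf1 and Gfi1b, the defining factors of the lineage, had 1 UMI each, and Tal1 and Nfe2 had 2 each. Of the 9 factors, 5 had enough UMIs for a ratio, and 4 of these were at least 2-fold higher, but the interval excluded 1 only for Sox6 and Tal1 (20.5, 2.37 to 80.8). The embryonic and theta globins had 0 UMIs in all 1127 nuclei, which in the 11 nuclei allows up to 262 CPM for each.

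Few UMIs of heme clearance genes and of markers of other cell types were counted in the 11 nuclei, at a depth that bounds few of these genes. Of 10 genes of hemoglobin and heme clearance, 2 were at least 2-fold higher, and the interval lay above 1 for 1, Blvrb, biliverdin reductase B, which red cells also express (7 UMIs, ratio 10.0, 3.98 to 20.98). Lrp1, the receptor for heme-hemopexin complexes, had 0 UMIs here and 1861 elsewhere, and Hmox1 0 and 871. Set against a floor of 3 UMIs in the 11 nuclei, the Lrp1 ratio would be 0.496, whereas for Hmox1 the floor gives 1.06, which bounds nothing. Of 6 megakaryocyte markers, 1 had a UMI. The 7 macrophage markers had 13 UMIs, 11 of them in the nucleus of the macrophage cluster (924 CPM, 492 to 1581, against 1555 CPM in the other 1116 nuclei).

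**Figure D4:**
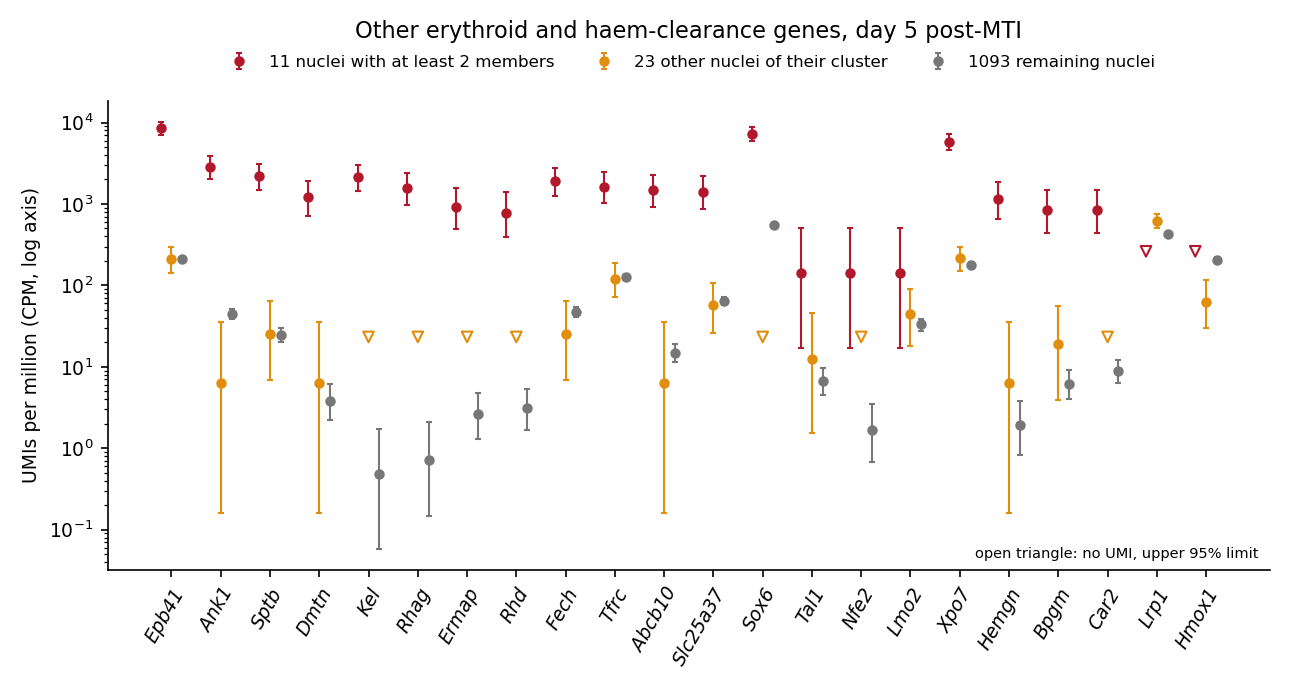
Levels of other genes in CPM (log axis) in the 11 nuclei with at least 2 members (red), in the 23 other nuclei of their cluster (orange) and in the remaining 1093 nuclei (grey) at day 5 post-MTI, with bars for 95% Poisson intervals and open triangles for the upper limit where no UMI was counted. The genes are the 4 with the most UMIs in the red set from each of 5 erythroid lists, among the genes reported here, and the 2 heme clearance genes with the most UMIs in the grey set, and for the membrane, antigen, heme and maturation genes the red points lie above the others.

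Within cluster 8 the same lists set its 10 nuclei apart from its 23, which all held proliferation marker UMIs. In that comparison 14.4% of 3828 genes were at least 2-fold higher in the 10 nuclei and 58.9% at least 2-fold lower. Enough UMIs for a ratio were counted for 7 of 9 membrane genes, 5 of 9 antigens, 4 of 12 heme synthesis genes and 8 of 13 late maturation genes. All of these were at least 2-fold higher in the 10 nuclei. Some, such as Kel, had enough UMIs only through the 10 nuclei, so this outcome was in part fixed by the filter. Sox6 had 100 UMIs in the 10 nuclei and 0 in the 23 (lower limit of the ratio 378) and Kel 29 and 0 (lower limit 105). Of the proliferation markers, 3 of 5 were at least 2-fold higher in the 10 nuclei, with a median ratio of 2.28. Macrophage markers were at 180 CPM (21.8 to 649) in the 10 and 2862 CPM (2605 to 3138) in the 23 nuclei, and the interval of the ratio lay below 1 for 3 of the 6 measured, Mrc1, Msr1 and Mertk.

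Over the 12 clusters, the genes most like Slc4a1 in level included, by Pearson r of log2(CPM + 10), Kel (0.976), 5430401H09Rik (0.960), Spdl1 (0.896) and Cep128 (0.884), among 11384 genes with at least 30 UMIs. For the summed globins they included Kel (0.913), 5430401H09Rik (0.887), Hist1h1b (0.873), Bpgm (0.863) and H2afz (0.849). The 12 points share 1 library and rest on cluster 8, so these are descriptions. Spdl1, a gene of chromosome segregation, had 33 UMIs in cluster 8 and 0 in the 11 nuclei, so its likeness came from the other nuclei of the cluster. Cep128 (186 and 13 UMIs), Hist1h1b (30 and 6) and H2afz (20 and 4) likewise had most of their cluster 8 UMIs in those other nuclei. Kel (29 and 30), 5430401H09Rik (29 and 29) and Bpgm (14 and 12) did not.

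The division of alpha chain counts differed between the day 1 low barcodes and the day 5 nuclei beyond its intervals. For beta chain counts, which were fewer, the intervals overlapped, which does not show that the division was the same. Hba-a2 made up 80.3% (74.8 to 85.1%) of the 244 alpha chain UMIs in the day 1 low barcodes and 84.2% (60.4 to 96.6%) of the 19 in the day 1 nuclei. In the 11 nuclei at day 5 it made up 15 of 44 (34.1%, 20.5 to 49.9%), and Hba-a1 the larger part. Hbb-bs made up 88.4% (78.4 to 94.9%) of the 69 beta chain UMIs in the day 1 low barcodes and 17 of 26 (65.4%, 44.3 to 82.8%) in the 11 nuclei. The 2 sets come from different libraries, days, injuries and kinds of barcode, which cannot be told apart, and the near-identity of the alpha chain genes limits what the split means.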

How the data were processed

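Single-nucleus RNAseq was made from sorted nuclei of the periosteum with hematoma or callus, 1 library per condition. The authors counted intronic and exonic reads with Cell Ranger 7.0.1 on mm10 and deposited whole UMI counts, not normalized, for each gene in each barcode. The labels name a human reference, but all gene identifiers are mouse. Cell Ranger assigns reads by strand. The authors pooled mice, so animals cannot be separated.

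Nuclei were those with 200 to 5000 genes and under 0.5% mitochondrial and 2.5% ribosomal UMIs at day 1, or under 5% and 2% at day 5. The study also removed myogenic nuclei, which were kept here, and counted fewer nuclei after its filters, far fewer at day 1. UMIs were summed over sets of barcodes and given per 1000000 UMIs (CPM), with exact Poisson intervals, exact Clopper-Pearson intervals for shares and exact conditional binomial intervals for ratios. Ratios needed 10 UMIs in both sets together. Where a count was 0, the limit of the exact interval is given, or 3 counts served as the floor where this is stated. Intervals cover counting error only.

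Day 5 nuclei were clustered in Seurat 5.3.0 (R 4.3.3) with 2000 variable genes, 30 principal components and resolution 1, and a cluster was named from at least 3 markers. Doublets were called with scrublet (scanpy 1.11.5) and kept at day 5, and were not called at day 1. Intervals were tested on simulated data. Clustering was tested on nuclei simulated from the pooled profile of each cluster found, which cannot show whether a cluster mixes kinds of nuclei. Thinning used fixed seeds. Other steps ran in pandas 2.3.3, SciPy 1.17.1 and NumPy 2.4.6 under Python 3.11.15.

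The members and lists were chosen with earlier results of these data known. Of each fixed list, the genes with the most UMIs in the set described are named, up to 8, and some others that had few or no UMIs were named after their values were seen. Ahsp was not analysed here, and single values of some list genes are not reported here.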

Additional observations from a re-analysis of the deposited data

How the results depend on the processing

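Of 37 alternatives over 6 values, 26 stayed within the counting interval of the main value, 11 left it, and of the 2 ratios 0 changed direction. The day 1 ratio of nuclei over low barcodes, 0.434, was 0.670 with the gene limits alone and 0.677 with a mitochondrial limit of 5%. With at least 500 genes and the main mitochondrial and ribosomal limits it was 0.141 (0.0170 to 0.513), where 190 nuclei remained. With both Slc4a1 and Alas2 required, 0 of 2405 day 1 nuclei were left (0%). The day 5 level of the members, 30.2 CPM, was 37.7 CPM with a mitochondrial limit of 0.5%, 22.6 CPM with at least 500 genes, 5.55 CPM without the 10 nuclei with the most member UMIs and 5.09 CPM without the 11 nuclei with at least 2 members, the last chosen after seeing the data. The day 5 ratio of the erythroid-like cluster over other nuclei, 76.1, was 10.5 with a mitochondrial limit of 0.5%. There the named cluster held 33 member UMIs and not all of the nuclei with at least 2 members that it held before and that passed the limit. The ratio was 30.4 with at least 500 genes. When nuclei were grouped by at least 3 erythroid markers, also chosen after seeing the data, it was 307. The cause of these changes was not tested. The share of Slc4a1-positive nuclei with an Alas2 UMI was between 37.5% and 62.5%, but rested on only 5 to 12 nuclei. With the 5 nuclei left after thinning, its interval ran from 5.27 to 85.3%. The share of nuclei with at least 4 members was between 0.355% and 0.873%. No paired analysis was possible because each condition has 1 library and no value comes from a test. Depth limits these values: 30 member UMIs at day 1 and 131 at day 5 are all that was counted in nuclei.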

Other observations

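Genes outside the fixed lists also led the 11 nuclei at day 5 post-MTI. They were named from their level after it was seen, among genes with at least 10 UMIs there, so they are descriptions with no test. Slc25a21, a mitochondrial carrier of dicarboxylates, had 80 UMIs in 9 of the 11 nuclei and 53 in the other 1116 (ratio 464, 324 to 670). March3, a ubiquitin ligase, had 163 UMIs in 10 nuclei (49.7, 41.8 to 58.7). Reln, reelin, had 43 UMIs in 9 nuclei (245, 160 to 372), Tmcc2 had 45 UMIs in 7 nuclei (113, 78.7 to 161), and Ube2o, a ubiquitin-conjugating enzyme that acts in late red cell maturation, had 25 UMIs in 7 nuclei (70.5, 43.7 to 110). Slfn14 had 17 UMIs in 6 nuclei and 1 UMI in all others (5226, 819 to 218412), and the unnamed transcript 5430401H09Rik had 29 UMIs in 8 nuclei and 6 elsewhere (1486, 606 to 4377).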
